A study of Mus musculus with 23 samples.

Results

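Round spermatids, the haploid cells that follow meiosis in the testis, were compared with pachytene spermatocytes, the cells of meiotic prophase from which they descend, over 12341 genes. The question was which RNAs of round spermatids were already present in pachytene and which were new. All 4 arrays titled round spermatids formed one group and all 4 pachytene arrays the other, 8 of the 23 arrays of the series. The pachytene group held 1 array of early, 2 of mid and 1 of late pachytene, so its spread includes differences between stages as well as between samples. RNA came from testis cells of male C57BL6xDBA2J F1 mice aged 10 to 16 weeks, stained with Hoechst 33342 and sorted by flow cytometry, and was labelled from oligo-dT primers for Affymetrix arrays. None of these 8 arrays carried a mutation or a treatment. The labels call the round spermatid and the mid-pachytene arrays biological replicates, but they do not say whether samples of different fractions shared mice. As background, 10 wild-type arrays of spermatogonia, pre-leptotene and leptotene/zygotene cells, 2 wild-type diplotene arrays and 3 arrays of Spo11-/- mice were looked at. The Spo11-/- arrays, 1 each of spermatogonia, pre-leptotene and leptotene/zygotene cells, came from mice of the same age range that lack the enzyme that makes meiotic DNA breaks.

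In pachytene, homologous chromosomes are held together along their length, recombination intermediates mature, and the X and Y chromosomes are silenced within the sex body. After both meiotic divisions, round spermatids build the acrosome and the tail, and later replace histones with transition proteins and protamines. Transcription stops when the nucleus condenses, so many spermatid mRNAs are made early and stored before they are translated. Meiosis arrests in prophase in Spo11-/- testes, which hold no round spermatids.

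Levels are the deposited intensity as log2(value + 1), and a gene was taken as detected in an array at log2 4 or more. Array values are given in the order early, mid 1, mid 2 and late pachytene, then round spermatids 1 to 4. A gene passed the test where its limma adjusted p was below 0.05 and its log2 change at least 1 in either direction; errors of changes are standard errors (SE), and errors of means are SD with n = 4. Folds are on the log2(value + 1) scale, which understates changes of dim genes. Where arrays of the dimmer group were below the detection level, the change of a gene named singly is given as at least the value with those arrays set at log2 4, without an SE, and a level is compared between arrays for 1 probe set, not between genes. Between 10866 and 11519 genes were detected in each of the 8 arrays. Across genes, which are not independent replicates, Pearson's r lay between 0.94 and 0.98 within round spermatids, between 0.86 and 0.96 within pachytene and between 0.71 and 0.82 between the groups.

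Markers of both cell types were checked before the comparison. Of 10 round spermatid markers, 8 were higher in round spermatids past the test, and Prm1 and Prm2, the protamines, were not. Pachytene markers were mixed: Piwil1, Sycp1 and Sycp3 were lower in round spermatids, Ccna1 and Pgk2 were higher, and Hspa2, Mlh3, Adam2, Spo11 and H1f6 did not pass. H1f6, the testis linker histone, was near the detection level throughout, between 3.55 and 6.36. Ptprc and Lyz2 of leukocytes, Pecam1 of endothelium and Col1a1 of fibroblasts were below the level in all 8 arrays. Spermatogonial markers were not absent from pachytene: Kit, Dmrt1 and Sall4 lay between 6.08 and 12.89 there. Acta2 of smooth muscle lay between 8.01 and 10.59 in the 8 arrays. Among the Spo11-/- arrays, the pre-leptotene array held leukocyte RNA, with Ptprc at 12.91 and Lyz2 at 10.96.

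Round spermatid RNAs were also present in arrays of cells that precede pachytene. Prm1, which packs sperm DNA, stood at 14.29, 14.23, 14.36 and 11.94 in the pachytene arrays and at 15.00, 14.26, 14.33 and 14.73 in round spermatids. In the 4 wild-type spermatogonia arrays it lay between 14.00 and 15.57. In the Spo11-/- arrays Prm1 was at 3.93, 2.76 and 4.67. Of the 10 spermatid markers, 9 had their lowest pachytene level in the late array, where Odf1 of the outer dense fibres was at 9.44 against 11.79 to 12.01 in the other pachytene arrays. Odf1 lay between 11.79 and 14.66 in wild-type spermatogonia and between 2.80 and 2.97 in the Spo11-/- arrays. What part RNA of spermatids plays in the pachytene levels was not tested, and presence in a pachytene array is reported below as presence in that sorted fraction. In such pooled cell samples, fewer cells of a type and less RNA per cell cannot be told apart.

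**Figure D1:**
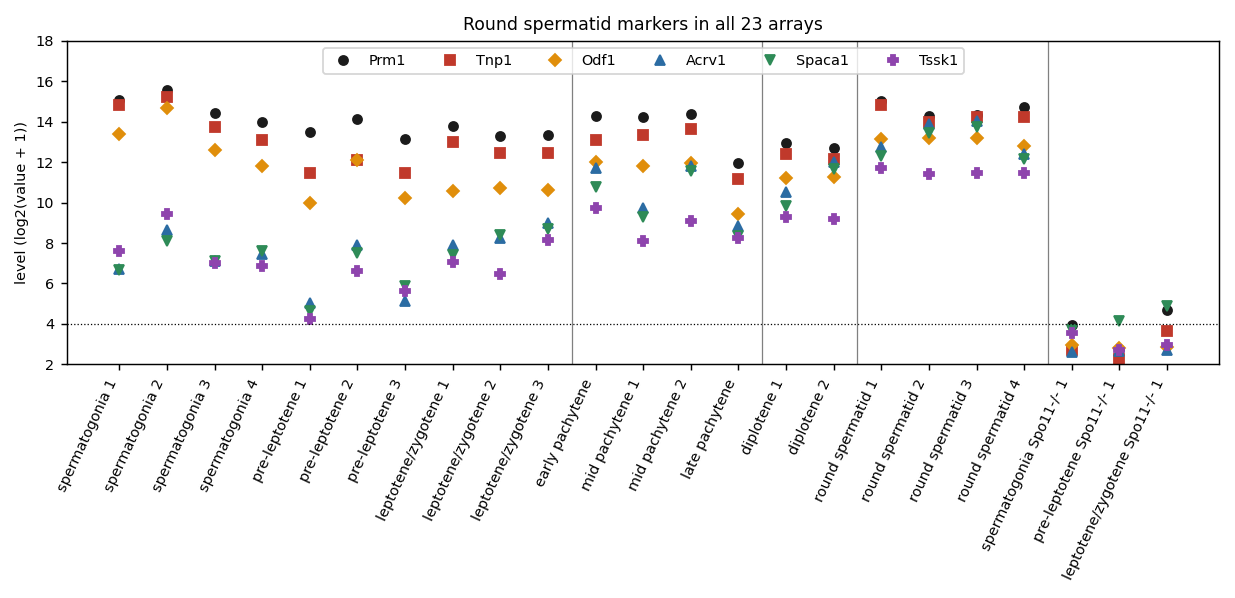
Level of 6 round spermatid markers (log2(value + 1), y axis) in each of the 23 arrays (x axis, grouped by fraction; vertical lines separate the cells before pachytene, pachytene, diplotene, round spermatids and Spo11-/- arrays; the dotted line marks log2 4). Prm1 lies between 11.94 and 15.57 in all 20 wild-type arrays and between 2.76 and 4.67 in the Spo11-/- arrays.

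A large share of genes differed between the groups, with similar numbers in each direction. Of the 12341 genes, 5691 (46.1%) passed the test: 2819 (22.8%) were higher and 2872 (23.3%) were lower in round spermatids. The arrays of the groups did not overlap for 5519 genes (44.7%), and for 4745 of the 5691 called genes. Changes of at least log2 2 numbered 1424 upward and 1560 downward, and those of at least log2 4 numbered 65 upward and 149 downward. The median change over all genes tested was 0.006. Of the summed intensity of all genes on the array, higher genes took 29.5% to 31.4% in round spermatids and 8.97% to 12.6% in pachytene. Lower genes fell from a share of 16.6% to 26.3% in pachytene to one of 4.49% to 6.50% in round spermatids. The genes were called on these same arrays, so the direction of both shifts was fixed by the calls. Round spermatid array 1 stood nearest to pachytene among the lower genes: it held the highest spermatid level of 1689 of the 2872. Without it, 2707 genes were higher and 2821 lower.

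**Figure D2:**
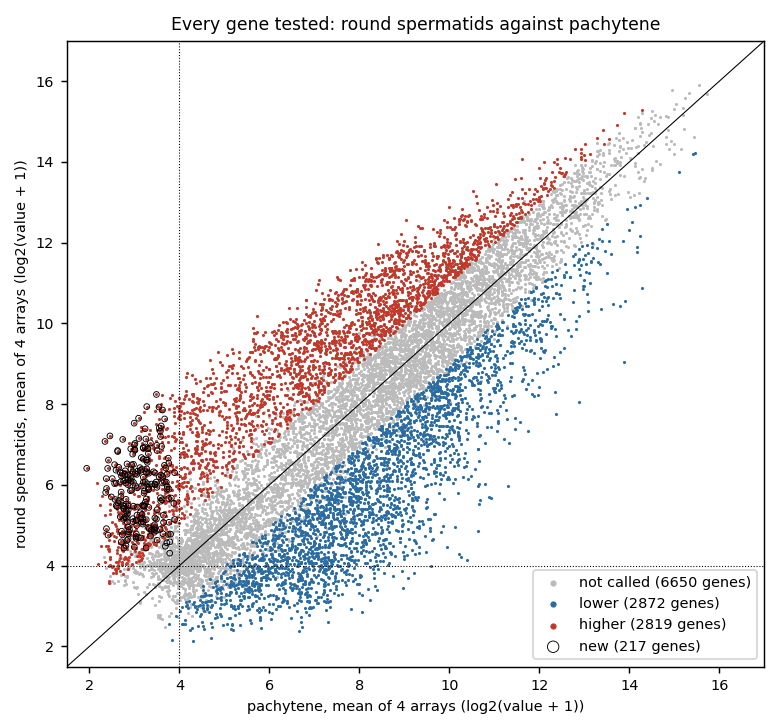
Mean level of every gene tested in the 4 pachytene arrays (x axis) and the 4 round spermatid arrays (y axis), both as log2(value + 1); colour gives the call, open circles mark new genes, dotted lines log2 4 and the diagonal equal levels. The 217 new genes sit at the left edge, and the highest of them reaches 8.24 in round spermatids.

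Most round spermatid RNAs were already detected in pachytene. Of the 9929 genes detected in all 4 round spermatid arrays, 9061 (91.3%) were detected in all 4 pachytene arrays, 651 (6.56%) in some of them, and 217 (2.19%) in none. The reverse share was similar: of 10151 genes detected in all pachytene arrays, 89.3% were detected in all round spermatid arrays. Such shares were not particular to pachytene. Single pachytene arrays held 94.6% to 95.4% of the 9929 round spermatid genes. Single wild-type arrays of the earlier fractions held 88.0% to 93.6% of them, and the Spo11-/- arrays 82.7% to 83.4%. Among the 2819 higher genes, 2000 (70.9%) were detected in all pachytene arrays and 7.52% were new. The share present in pachytene grew with the level in round spermatids, from 77.3% of genes between log2 4 and 6 to 97.1% between 8 and 10, and it was 100% of the 2049 genes between 10 and 12, the 697 between 12 and 14 and the 105 above 14. The fixed level builds in part of this growth, since a brighter gene must differ more to lie below log2 4 in pachytene. With detection at log2 6 in place of 4, the share already present was 85.4% and the share new 3.91%.

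The presence of higher genes in pachytene overlapped with their presence in earlier wild-type fractions. Of the 2000 higher genes present in both groups, 608 (30.4%) were below the level in all 3 Spo11-/- arrays. Of these 608, 253 (41.6%) were detected in all 10 wild-type arrays of the same fractions. Over all 9061 genes present in both groups, 789 (8.71%) were below the level there. Of these 789, a similar share, 303 (38.4%), was detected in all 10 wild-type arrays. Without the pre-leptotene Spo11-/- array the counts of higher genes were 658 and 268. The median mean level of the 608 was 10.37 in round spermatids, 7.94 in pachytene and 5.51 in those wild-type arrays. In the Spo11-/- arrays it was 3.00, which the choice of genes fixes below the level. By contrast, 5 of the 1867 lower genes present in both groups were below the level in all Spo11-/- arrays. Diplotene, the fraction between the groups, held 84.5% and 86.9% of the higher genes in its 2 arrays, against 77.2% to 79.5% in the single pachytene arrays.

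The brightest genes present in both groups without a call were high in both fractions. They were chosen by level, near the top of the scale, and whether changes are compressed there was not tested. Meig1, needed for the manchette that shapes the spermatid, stood at 14.42, 14.76, 14.81 and 15.81 in pachytene and at 15.96, 15.69, 15.87 and 15.65 in round spermatids. Its change of 0.84 ± 0.33 (SE) missed the threshold (limma adjusted p = 0.055), and the late-pachytene array lay within the spermatid range. Ldhc, the germ cell lactate dehydrogenase, differed by 0.40 ± 0.26, between pachytene levels of 14.56 to 15.40 and spermatid levels of 15.27 to 15.59. The actin-binding Tmsb10 differed by 0.36 ± 0.24 and the ribosomal protein gene Rps29 by -0.04 ± 0.23. Pebp1, Gstm5, Pabpc1, Spata4, Crisp2 and Hsbp1 completed the 10 of this kind with the highest round spermatid levels, with changes between 0.15 and 0.94. Crisp2, a sperm secretory-type protein of the acrosome and tail, came closest to the fold minimum after Meig1 and Hsbp1, at 0.76 ± 0.29. The lack of a call does not mean equal levels. The arrays of the groups did not overlap for Tmsb10, Pebp1 and Hsbp1, and they overlapped for the others. Hsbp1 passed the test under 6 and Meig1 under 3 of 18 alternatives.

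New genes were few and dim. The 217 had a median round spermatid level of 5.93, none had a group mean above 8.24, and together they gave 0.073% to 0.14% of the summed intensity of round spermatids. Of the 217, 212 were higher past the test, as the rule for new genes nearly fixes. In 66 of them a round spermatid array lay within 0.5 of the detection level, in 102 a pachytene array did, and in 73 every spermatid array was at least log2 2 above the highest pachytene array. Round spermatid array 4 was the dimmest for these genes, with a median of 5.21 against 5.82 to 6.20 in the other spermatid arrays, and without it 341 genes were new. Diplotene held 40 of the 217 in both arrays and 62 in 1 array, and 84 were below the level in all 19 arrays that were not of round spermatids. Genes with predicted names numbered 50.

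The brightest new genes had separate arrays, as the rule for new genes requires. Samt4, an X-linked multipass membrane protein of a multicopy testis family whose copies may share the probe set, was at 4.00 (just under the level), 3.13, 3.42 and 3.40 in pachytene and at 8.59, 8.89, 8.80 and 6.68 in round spermatids. This was a difference of at least 4.24 on the log2 scale, measured against the detection level (limma adjusted p = 0.000199). Lpo, lactoperoxidase, went from between 3.05 and 3.65 to between 7.48 and 8.24, at least 3.94. Cuzd1, a membrane protein with CUB and zona pellucida domains, went from between 3.31 and 3.90 to between 7.38 and 8.36, at least 3.93. Array 4 was the lowest spermatid array for Samt4 and Cuzd1. Tmco5b, C1qtnf3, Ccdc169, Cd5l, Zfp558, Tgfbr3 and Bcl2l15 followed, with bounds from 3.15 to 3.65. Cd5l is otherwise known from macrophages, whose markers are described below.

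Other large rises started at differing pachytene levels. Dct, dopachrome tautomerase of the melanin pathway, was between 2.23 and 2.64 in pachytene and at 6.48, 7.45, 7.61 and 6.76 in round spermatids, at least 3.08. Lhb, the beta subunit of luteinizing hormone, was between 1.93 and 1.94 in pachytene and at 6.73, 7.18, 6.42 and 5.32 in round spermatids, at least 2.41. Acsbg3, an acyl-CoA synthetase gene, was the brightest of the 12 largest rises and was detected throughout pachytene, at 6.85, 4.69, 7.25 and 4.11. It reached 10.47, 10.03, 10.45 and 9.71 in round spermatids, a rise of 4.44 ± 0.67 (21.7-fold, limma adjusted p = 0.000822). Gsap, Lamb3 and Ccdc182 were detected in 1 pachytene array each and rose by at least 4.21, 3.71 and 3.47. Phf8-ps, Mroh9 and Ttc23l were detected in 3 each and rose by at least 4.31 to 4.42. In each of the 12 largest rises the groups of arrays did not overlap, as the rule for naming them required.

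**Figure D3:**
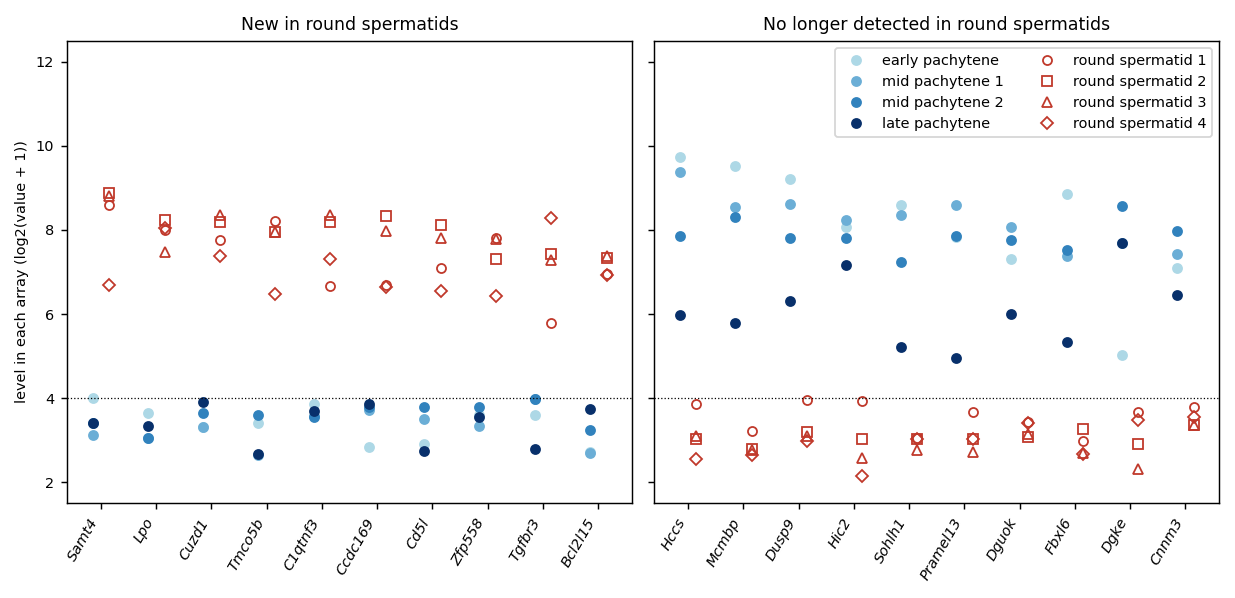
Level in each array (log2(value + 1), y axis) of the 10 new genes with the highest round spermatid means (left) and of the 10 genes no longer detected with the highest pachytene means (right); filled circles are pachytene arrays, open red symbols round spermatid arrays, the dotted line log2 4. Samt4 is at 6.68 to 8.89 in round spermatids, and in the right panel the late-pachytene array is the lowest pachytene array for 9 of the 10 genes.

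Promoter windows show what sequence the rising genes carried at their start. Windows of 300 bases, 250 before to 50 after the gene start, were taken from RefSeq on GRCm38.p6; 80.1% of the higher, 81.1% of the new and 81.7% of the tested genes had one. The cyclic AMP response element TGACGTCA, its own reverse complement and the site bound by CREM, was in 2.97% of the windows of higher genes, 1.14% of new genes and 3.25% of all genes tested, and in 1.88% of all windows. The shorter site TGACGT, searched on both strands and contained in the full element, was in 9.12%, 6.82%, 11.7% and 7.64%. TATAAA, on either strand, was in 16.5% of windows of new genes (29 of 176), 8.99% of higher genes, 7.19% of tested genes and 14.2% of all RefSeq genes with a window, most of which were not among the tested genes. GTTGCC on either strand, a part of the X box bound by RFX factors, was in 16.4% of windows of higher genes, 11.4% of lower, 13.1% of new and 13.7% of tested genes, and in 12.7% of all windows. TAACNG on either strand, bound by MYB factors, was in 23.3% of new, 23.2% of higher, 17.1% of lower and 19.6% of tested genes, and in 23.2% of all windows. These shares are descriptions, and a match is not evidence of binding.

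Windows of 3 higher list members with the full element are printed, since CREM is the known activator of spermatid genes: Ccin (chr4:43983254-43983553, + strand), Izumo1 (chr7:45621561-45621860, + strand) and Spag4 (chr2:156064963-156065262, + strand). Capitals mark TGACGTCA, which starts 50, 96 and 37 bases before the gene start.
Ccin: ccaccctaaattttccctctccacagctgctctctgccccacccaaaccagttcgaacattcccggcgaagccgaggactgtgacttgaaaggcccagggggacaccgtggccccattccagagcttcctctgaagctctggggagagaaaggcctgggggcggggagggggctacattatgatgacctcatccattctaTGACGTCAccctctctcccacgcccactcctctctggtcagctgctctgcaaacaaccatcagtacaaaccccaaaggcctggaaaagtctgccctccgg
Izumo1: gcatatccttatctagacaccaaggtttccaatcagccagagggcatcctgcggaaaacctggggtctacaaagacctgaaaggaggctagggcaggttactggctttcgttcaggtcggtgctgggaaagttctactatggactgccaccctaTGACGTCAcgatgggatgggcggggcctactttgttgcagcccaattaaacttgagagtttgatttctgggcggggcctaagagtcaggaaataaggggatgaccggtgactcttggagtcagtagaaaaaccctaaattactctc
Spag4: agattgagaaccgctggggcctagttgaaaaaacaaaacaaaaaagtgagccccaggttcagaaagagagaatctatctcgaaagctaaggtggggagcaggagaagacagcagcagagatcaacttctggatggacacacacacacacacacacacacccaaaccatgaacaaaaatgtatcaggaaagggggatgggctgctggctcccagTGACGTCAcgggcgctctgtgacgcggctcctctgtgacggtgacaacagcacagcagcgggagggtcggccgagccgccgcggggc
Windows of 3 new genes with TATAAA on the gene strand 20 to 40 bases before the start are printed because new genes held this motif at a higher share than tested genes: Lhb (chr7:45420696-45420995, + strand), Afm (chr5:90518699-90518998, + strand) and Tal2 (chr4:53779451-53779750, + strand); Afm and Tal2 were chosen after their values were seen. Capitals mark TATAAA, which starts 31, 30 and 30 bases before the gene start. Over all windows, 23.1% of the TATAAA matches on the gene strand started in that stretch.
Lhb: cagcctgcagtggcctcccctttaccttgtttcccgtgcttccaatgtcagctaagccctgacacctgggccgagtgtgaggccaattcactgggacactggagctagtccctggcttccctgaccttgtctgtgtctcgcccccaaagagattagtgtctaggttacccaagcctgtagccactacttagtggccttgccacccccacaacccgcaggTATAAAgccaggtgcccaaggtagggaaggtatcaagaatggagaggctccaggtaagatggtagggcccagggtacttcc
Afm: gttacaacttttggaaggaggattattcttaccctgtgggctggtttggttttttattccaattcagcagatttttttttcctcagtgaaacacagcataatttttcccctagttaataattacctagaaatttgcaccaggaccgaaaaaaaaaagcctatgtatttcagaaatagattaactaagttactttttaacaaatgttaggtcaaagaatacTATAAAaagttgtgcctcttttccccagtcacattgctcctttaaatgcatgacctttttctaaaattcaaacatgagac
Tal2: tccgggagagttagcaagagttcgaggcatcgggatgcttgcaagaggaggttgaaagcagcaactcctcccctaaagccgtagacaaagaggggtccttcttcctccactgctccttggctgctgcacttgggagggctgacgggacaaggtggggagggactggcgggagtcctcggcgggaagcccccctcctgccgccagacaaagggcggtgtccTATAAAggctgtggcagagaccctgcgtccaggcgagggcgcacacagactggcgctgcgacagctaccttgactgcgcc

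RNAs no longer detected were also few. Of the genes detected in all 4 pachytene arrays, 141 were below the level in all round spermatid arrays. Lower past the test were 138 of them, as the rule for this class nearly fixes. Of the 141, 136 were detected in all 4 spermatogonia arrays, 37 in both diplotene arrays and 55 in no diplotene array. The share of all pachytene genes detected in spermatogonia was not counted, so 136 is not read as a trait of this class. Without round spermatid array 1 the number of genes no longer detected was 350, and without the late-pachytene array it was 245. Whether they were fewer than new genes depended on the setting: with detection at log2 6 there were 366 against 286 new, and without round spermatid array 1 there were 350 against 239. Hccs, the X-linked enzyme that attaches heme to cytochrome c, stood at 9.74, 9.37, 7.86 and 5.98 in pachytene and at 3.87, 3.03, 3.10 and 2.56 in round spermatids. This was a fall of at least 4.24 (limma adjusted p = 0.00071). Mcmbp, which binds the replicative helicase, stood at 9.53, 8.54, 8.32 and 5.79 and then between 2.64 and 3.23, at least 4.05 lower. Dgke, a diacylglycerol kinase, stood at 5.03, 7.69, 8.58 and 7.69, lowest in the early array, and then between 2.32 and 3.67. The other 9 of the 10 named genes, Hccs and Mcmbp among them with Dusp9, Hic2, Sohlh1, Pramel13, Dguok, Fbxl6 and Cnnm3, were lowest in the late-pachytene array within pachytene.

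Replication, centromere and spermatogonial genes were among the 12 largest falls. Cdt1, which licenses replication origins, stood at 11.72, 11.35, 10.17 and 8.30 in pachytene and at 7.72, 4.07, 2.36 and 2.43 in round spermatids, a fall of at least 5.44 with 2 spermatid arrays detected (limma adjusted p = 0.00238). Cenpa, the centromeric histone H3, stood at 12.15, 10.78, 9.81 and 8.32 and then at 5.25, 4.53, 3.75 and 3.29, at least 5.82 lower. Mcm2, a subunit of the replicative helicase, went from between 6.98 and 10.52 to between 2.91 and 5.70. Within pachytene all 3 were highest in the early array and lowest in the late array, and spermatid array 1 was the highest spermatid array for each. Exosc7, a subunit of the RNA exosome, was level through pachytene at 9.43, 9.83, 9.76 and 9.31 and stood at 4.71, 4.98, 3.15 and 3.15 in round spermatids, at least 35.8-fold lower with 2 of 4 spermatid arrays detected (limma adjusted p = 0.000128). Dicer1, the enzyme that cuts small RNA precursors, stood at 10.23, 9.75, 9.28 and 7.06 and then at 6.23, 3.34, 2.60 and 2.57. Uchl1 and Tex19.1, detected in every spermatid array, fell by 5.32 ± 0.79 and 5.26 ± 0.51. Bex1, Stra8, Pbx2, Tm2d3 and Mcmbp made up the rest of the 12, at least 4.05 to 5.53 lower, with 0 to 3 spermatid arrays detected.

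Spermatogonial markers were high in pachytene and lower in round spermatids. Of 19 tested, 16 were lower, none was higher, and the median change was -3.19; leaving out single arrays gave 13 to 16. Stra8, which starts meiosis in response to retinoic acid, stood at 11.35, 11.59, 10.91 and 8.68 in pachytene and at 7.78, 4.28, 4.37 and 3.04 in round spermatids, a fall of at least 5.53 (limma adjusted p = 0.00146). Kit, the receptor of differentiating spermatogonia, went from 9.80, 8.71, 9.05 and 6.08 to between 3.38 and 5.03. Dmrt1, detected in every array, fell by 4.40 ± 0.77. Zbtb16, Sohlh1 and Dnmt3b, detected in 1, 0 and 3 spermatid arrays, fell by at least 3.96, 3.35 and 4.84. In wild-type spermatogonia Kit lay between 10.60 and 11.48 and in diplotene between 5.01 and 5.34. What part RNA of earlier germ cells plays in these pachytene levels was not tested.

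**Figure D4:**
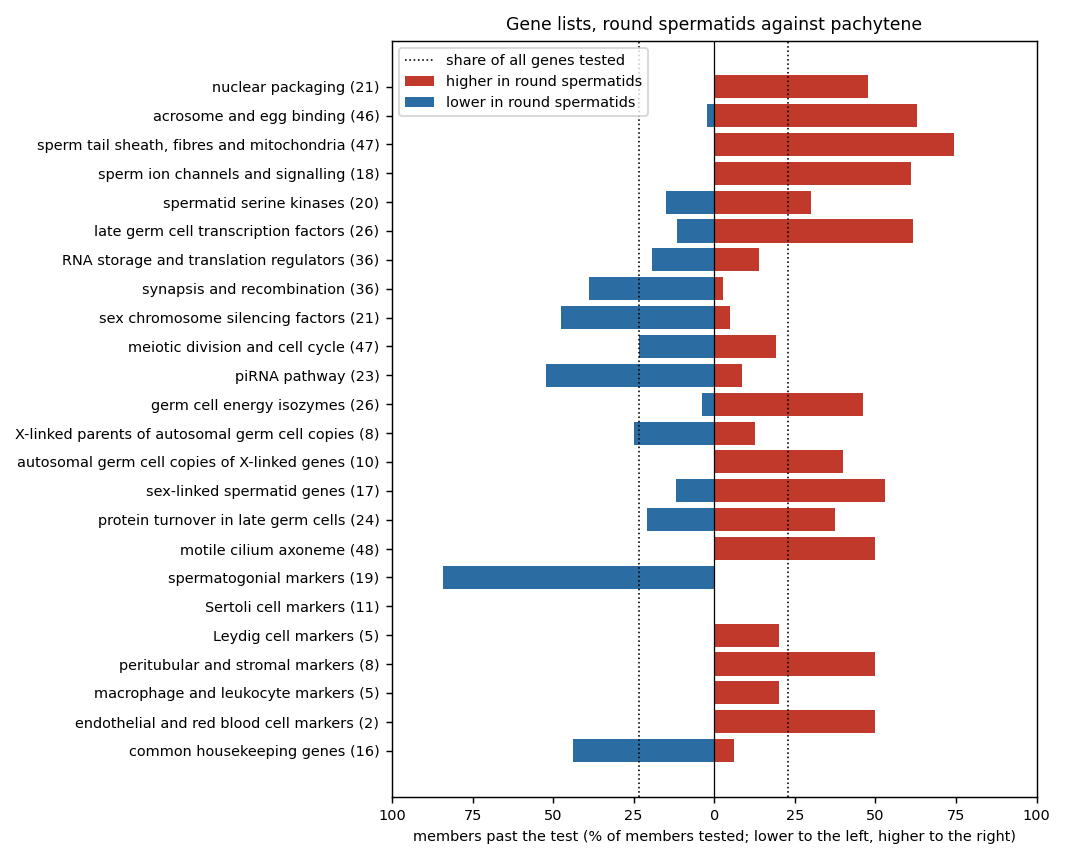
Share of the tested members of each of 24 gene lists (number tested in parentheses) past the test, in percent, higher in round spermatids to the right and lower to the left; dotted lines give the shares over all genes tested, 22.8% higher and 23.3% lower. The tail list, which also holds some sperm head genes, stands at 74.5% higher and spermatogonial markers at 84.2% lower.

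Genes of nuclear packaging were present in pachytene, and 10 of 21 tested were higher in round spermatids and none lower, with a median change of 1.12. Without round spermatid array 1, 6 of them were higher. Here and for the lists below, the shares over all genes tested were 22.8% higher and 23.3% lower. Tnp1 and Tnp2, the transition proteins that replace histones, rose by 1.52 ± 0.52 and 1.89 ± 0.51; Tnp1 stood at 13.10, 13.34, 13.62 and 11.15 and then at 14.83, 13.97, 14.23 and 14.25. Hils1, the spermatid linker histone, stood at 11.96, 10.61, 10.95 and 8.93 and then at 13.33, 13.07, 12.98 and 12.54, 5.16-fold higher (limma adjusted p = 0.00684). Chd5, a chromatin remodeller needed for histone removal, rose the most, by 2.60 ± 0.33. Prm1 and Prm2 changed by 0.88 ± 0.53 and 1.12 ± 0.57 and did not pass (limma adjusted p = 0.199 and 0.126). All 21 list members tested but 2 were detected in every array of both groups, against 9061 of all 12341 genes tested.

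Acrosome and egg-binding genes rose broadly: 29 of 46 tested were higher, 1 was lower, and the median change was 1.61. Hyal5 and Spam1, sperm hyaluronidases, rose by 3.54 ± 0.49 and 3.32 ± 0.56; Spam1 stood at 8.09, 6.25, 7.74 and 5.79 and then at 10.25, 10.87, 10.66 and 9.39 (10.0-fold, limma adjusted p = 0.0013). Izumo1, the sperm protein that binds Juno on the egg, stood at 9.83, 8.91, 9.82 and 7.32 and then at 11.60, 11.98, 12.12 and 12.01. Calr3, a testis chaperone of sperm ADAM proteins, rose by 3.47 ± 0.64. Early and mid-2 pachytene were the brighter pachytene arrays for these genes, as the list medians of 10.39, 9.28, 9.92 and 9.52 show. Acr, acrosin, rose by 1.01 ± 0.36 from a pachytene mean of 11.82 ± 0.68 (SD, n = 4), while Adam2, a fertilin subunit, stood at 13.50 ± 0.70 and 13.69 ± 0.24. Ly6k, needed for ADAM3 maturation, was the 1 lower member at -1.76, named after its value was seen. In all, 45 of the 46 were detected in every array of both groups, against 9061 of all 12341 genes tested.

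The tail list, which also holds sperm head genes such as Actrt1 and Ccin, had the highest share of risers. Of 47 tested, 35 were higher, none was lower, and the median change was 1.69. Actrt1, an actin-related protein of the sperm head cytoskeleton, was the 1 new member, at 3.08, 2.81, 3.30 and 2.84 in pachytene and at 7.92, 7.14, 7.28 and 5.76 in round spermatids, at least 3.03. Ccin, calicin of the same structure, whose promoter is printed above, stood at 6.09, 5.43, 5.61 and 4.15 and then at 10.06, 9.16, 8.97 and 8.97, a rise of 3.97 ± 0.44 (15.7-fold, limma adjusted p = 0.000247). Akap4, the main protein of the fibrous sheath, stood at 11.00, 10.64, 10.96 and 8.64 and then at 12.98, 12.30, 12.33 and 12.60. Neither pair of groups overlapped, and the late array was the lowest pachytene array for Ccin and Akap4. Cabyr, Tekt4, Spag4 and Spag6, of the fibrous sheath, tektin filaments, nuclear envelope and central pair, rose by 2.95 to 3.08. The motile cilium axoneme list shares members with it, and 24 of its 48 were higher and none lower (median 1.07). Dnaic2, an intermediate chain of outer dynein arms, stood at 7.41, 5.18, 7.50 and 8.03 and then at 10.30, 10.88, 10.98 and 11.13, 13.9-fold higher. The 8 intraflagellar transport genes Ift20, Ift27, Ift74, Ift80, Ift81, Ift88, Ift140 and Ift172, named after their values were seen, did not pass, at -0.90 to 0.69.

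Genes of sperm ion channels and signalling rose with the tail list, 11 of 18 higher and none lower (median 1.30). Catsper1 and Catsper3, pore subunits of the sperm calcium channel, rose by 2.96 ± 0.46 and 3.53 ± 0.77; Catsper1 stood at 9.17, 7.66, 8.69 and 7.10 and then at 11.31, 11.44, 11.11 and 10.60. Kcnu1, the sperm potassium channel SLO3, stood at 8.01, 7.48, 8.66 and 7.19 and then at 10.92, 10.93, 11.45 and 11.02. Its auxiliary subunit Lrrc52 stood at 2.30, 2.26, 4.67 and 2.29 and then at 5.50, 7.82, 8.61 and 6.22, at least 2.87 higher. The probe set of Kcnu1 was detected in every pachytene array and that of Lrrc52 in 1. Levels are not compared between genes, so this gives no order of appearance for them. Plcz1, the sperm factor that activates the egg, rose by 2.76 ± 0.46.

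Of 20 spermatid serine kinase genes tested, 6 were higher, 3 were lower and 11 did not pass (median 0.28). These shares, 30.0% higher and 15.0% lower, stand against 22.8% and 23.3% of all genes tested, so the list as a whole is not read as rising. The 6 were Tssk1 to Tssk6, testis-specific serine kinases of spermatids; Tssk5, below the level in pachytene, rose by at least 1.32 and the others by 1.86 to 3.25. Tssk2 stood at 9.75, 8.86, 9.67 and 7.18 and then at 12.23, 11.57, 11.62 and 11.26. Sbk1 and Prkacb were lower by at least 4.28 and 2.45 and Stk31 by 2.05 on the log2 scale. Without single arrays, 4 to 7 members were higher.

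Transcription factors of late germ cells were mostly higher, 16 of 26, with 3 lower and a median change of 1.37. Foxj1, which directs motile cilium genes, stood at 6.43, 5.04, 6.66 and 4.87 in pachytene and at 9.08, 9.57, 9.44 and 9.35 in round spermatids, 12.2-fold higher (limma adjusted p = 0.000321). Sox5 rose by 3.51 ± 0.42; the rise of 3.00 ± 0.40 for Sox6 was lost where the median of its probe sets was used (limma adjusted p = 0.864). Crem, the activator of postmeiotic genes, stood at 10.47, 9.43, 10.67 and 10.82 and then at 11.08, 12.18, 12.66 and 12.07, a rise of 1.65 ± 0.42. Fhl5, its coactivator, rose by 3.07 ± 0.49. Rfx2, which drives cilium and spermatid genes, changed by 0.88 ± 0.54 and did not pass, while Rfx1 and Rfx3 were higher by 2.30 and 2.44. The lower members were Rhox13, Nfyb and Taf7l, by 2.19 to 2.64, of which Nfyb and Taf7l were named after their values were seen. Rhox13 and Taf7l are X-linked. Without mid-pachytene array 1 or round spermatid array 4, 1 member was lower. All 26 were detected in every array of both groups, against 9061 of all 12341 genes tested.

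RNA storage and translation regulators were detected in every array of both groups for 35 of 36, against 9061 of all 12341 genes tested. Of the 36, 5 were higher and 7 lower, shares below those of all genes, with a median change of 0.04. Dazl, which binds germ cell mRNAs, stood at 13.87, 13.35, 12.91 and 11.35 and then at 9.53, 8.36, 7.15 and 7.19, a fall of 4.81 ± 0.66 (28.1-fold, limma adjusted p = 0.000546). Cpeb1, a regulator of polyadenylation in the cytoplasm, was no longer detected, at 8.29, 7.17, 7.71 and 5.16 and then 2.86 to 3.64. Its relative Cpeb3 rose by 2.13 ± 0.32, but not with the median of its probe sets (limma adjusted p = 0.319). Ybx2, the packaging protein of stored mRNA, stood at 13.02 ± 0.73 in pachytene and 13.22 ± 0.38 in round spermatids (SD, n = 4). Papolb, Adad1, Pabpc2 and Prkra, named after their values were seen, were the other higher members, by 1.35 to 1.88.

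Of 36 synapsis and recombination genes tested, 14 were lower and 1 higher (median -0.77). In every array of both groups 34 were detected, against 9061 of all 12341 genes tested. Of all genes detected in every pachytene array, 89.3% were detected in every round spermatid array. The count of 34 is therefore not read as a trait of this list. Ccnb1ip1, a crossover factor also called HEI10, stood at 8.18, 9.63, 9.54 and 9.60 and then at 4.58, 4.83, 4.44 and 4.63, 24.6-fold lower (limma adjusted p = 0.000116). Sycp1, the transverse filament of the synaptonemal complex, stood at 11.94, 12.11, 12.57 and 12.08 and then at 10.69, 10.79, 10.80 and 10.19, lower by 1.56 ± 0.27. Tex12 of the central element fell by 4.07 ± 0.44, but Syce1, Syce2 and Syce3 of the same structure changed by 0.71, -0.75 and -0.13 and did not pass. Rec8, a meiotic cohesin subunit named after its value was seen, was the 1 higher member, at 2.72. Stag3 and Smc1b, other meiotic cohesin subunits, were at 0.13 and -0.06. Sex chromosome silencing factors were lower in 10 of 21 and higher in 1 (median -0.97). Topbp1, which loads the ATR kinase on unsynapsed axes, stood at 10.94, 11.51, 11.50 and 11.09 and then at 8.15, 8.07, 7.34 and 7.82, 10.7-fold lower. Dot1l, the H3K79 methyltransferase named after its value was seen, was higher by 1.41.

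Division genes moved both ways, 9 higher and 11 lower of 47, shares close to those of all genes (median 0.10). Mad2l1 of the spindle checkpoint fell by 3.75 ± 0.38, from 11.01, 10.90, 10.69 and 9.96 to 7.56, 7.05, 6.88 and 6.05. Other spindle checkpoint genes did not pass, with Bub1 at 0.23, Bub1b at -0.22, Bub3 at -0.48 and Mad1l1 at -0.83. Among cyclins of the G1 and S phases, Ccne2 fell by 3.45 ± 0.51, Ccnd1 and Ccnd2 by at least 3.37 and 2.76, Ccnd3 rose by 2.25 ± 0.42, and Ccne1 did not pass, at -0.20. Ccna1, the meiotic A cyclin, was the top riser, at 11.10, 8.92, 10.59 and 9.78 and then 11.93, 12.61, 13.00 and 12.94, higher by 2.52 ± 0.48 (limma adjusted p = 0.00232). Its somatic relative Ccna2 was lower by 2.45.

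The piRNA pathway was lower in 12 of 23 and higher in 2 (median -1.13). In every array of both groups 22 of the 23 were detected, against 9061 of all 12341 genes tested. These proteins cut long precursor RNAs into piRNAs, which are abundant in pachytene. Mov10l1, the helicase of precursor processing, stood at 11.97, 11.80, 12.13 and 10.72 and then at 8.85, 9.0, 8.57 and 8.99, 6.97-fold lower (limma adjusted p = 0.000337). Piwil1, the MIWI protein, stood at 11.10, 13.51, 13.70 and 14.08 and then at 11.30, 11.42, 11.09 and 11.18, lower by 1.85 ± 0.58; its early-pachytene level lay within the spermatid range. Ddx4 and Mael, of the same granules, changed by 0.32 and 0.38 and did not pass. Tdrd7 and Henmt1, named after their values were seen, were higher by 1.56 and 1.51.

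Germ cell energy isozymes were higher in 12 of 26 and lower in 1 (median 0.85). Pgk2, the autosomal phosphoglycerate kinase that stands in for the silenced X-linked Pgk1, stood at 12.31, 10.95, 11.64 and 10.94 and then at 13.44, 13.65, 13.76 and 13.47, 4.35-fold higher (limma adjusted p = 0.00106). Pgk1 itself changed by -0.32 and did not pass. Gapdhs, the glyceraldehyde phosphate dehydrogenase of the tail, rose by 1.69 ± 0.61, and Aldoart1 and Aldoart2, retrogene aldolases, rose by 2.35 and 2.60. Suclg2, a subunit of succinyl-CoA ligase, fell by at least 2.83. Among 10 autosomal copies of X-linked genes, Utp14b, Pgk2, Ubl4b and Gk2 were higher and none lower. Among 8 X-linked parents, Cstf2 was higher and Cetn2 and Pdha1 lower, but the Cstf2 call turned to -1.07 with the median of its probe sets.

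Protein turnover genes were higher in 9 of 24 (37.5%) and lower in 5 (20.8%), against 22.8% and 23.3% of all genes tested (median 0.35). Rnf148, Rnf151, Rnf133 and Klhl10, testis ubiquitin ligase genes, rose by 2.65 to 2.93 for the last 3 and by at least 3.65 for Rnf148. Psma7, the common alpha subunit of the proteasome core, fell by 3.18 ± 0.47, and Psma8, its germ cell counterpart, named after its value was seen, was lower by 1.52. Uchl1, a ubiquitin hydrolase of spermatogonia, fell by 5.32 ± 0.79, from 12.24, 12.06, 11.64 and 9.26 to 7.22, 6.15, 6.44 and 4.09. Common housekeeping genes were lower in 7 of 16 and higher in 1 (median -0.78). Rpl19 of the large ribosomal subunit stood at 14.02, 14.30, 13.80 and 13.30 and then at 12.30, 11.92, 11.94 and 11.96. Tubb5, a beta tubulin, fell by 4.77 ± 0.94 and Actb changed by -0.25. Tbp, the TATA-binding protein, was the 1 higher member, at 1.35.

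The X chromosome was low in both groups. The X-linked level, taken as the difference of medians between 375 X-linked and 11885 autosomal genes, was -1.32, -1.59, -2.28 and -3.11 in early, mid 1, mid 2 and late pachytene, and -1.76, -2.67, -2.59 and -2.70 in round spermatids 1 to 4. The group means were -2.07 ± 0.80 and -2.43 ± 0.45 (SD, n = 4), a difference of -0.35 (two-sided exact permutation test, p = 0.4857; the smallest p that 4 against 4 arrays allow is 0.0286). Without the filter on low genes the difference was 0.042, opposite in sign. Diplotene stood at -2.82 and -3.50, and the wild-type spermatogonia arrays between -0.47 and 0.06. Of the X-linked genes, 22.7% were higher and 28.0% lower in round spermatids, against 22.7% and 23.2% of autosomal genes. X-linked genes made up 7.11% of the new genes with a known chromosome and 9.22% of those no longer detected. They made up 6.58% of round spermatid genes detected in some pachytene arrays and 1.83% of those present in both. Of all genes tested, 375 were X-linked and 11885 autosomal. In all 8 arrays the X-linked median lay nearer to the detection level than the autosomal median. What part this plays in the shares was not tested.

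Single X-linked genes moved strongly in either direction. Among the sex-linked spermatid genes listed, 9 of 17 were higher and 2 lower (median 1.53). Dusp21, Samt3, Cldn34d, Tcp11x2, Hdac6 and Sox3 lie outside the lists or the naming rule and were chosen for their rank among X-linked genes after their values were seen. Dusp21, a dual specificity phosphatase, stood at 4.65, 3.11, 3.71 and 2.84 in pachytene and at 8.06, 7.81, 8.39 and 7.12 in round spermatids, at least 12.8-fold higher with 1 pachytene array detected. Samt3, a relative of Samt4, was new, between 2.82 and 3.31 and then between 5.59 and 7.38. Cldn34d rose by at least 3.55 and Tcp11x2 by 4.02 ± 0.50. Fthl17a, a ferritin-like gene of a multicopy family, stood at 5.70, 4.25, 4.69 and 3.83 and then at 8.33, 9.14, 9.25 and 7.04, at least 13.8-fold higher (limma adjusted p = 0.000706). Cypt1 and Cypt3, cysteine-rich perinuclear theca genes that may share probes with their relatives, rose by 2.67 and 2.38. The X-linked Ddx3x fell by 2.76 ± 0.67 and the Y-linked Uba1y, named after its value was seen, by 2.00. Hdac6, a tubulin deacetylase, stood at 12.12, 11.48, 11.33 and 8.60 and then at 8.14, 6.05, 5.80 and 2.79. Sox3, a transcription factor of spermatogonia, fell by at least 4.40.

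**Figure D5:**
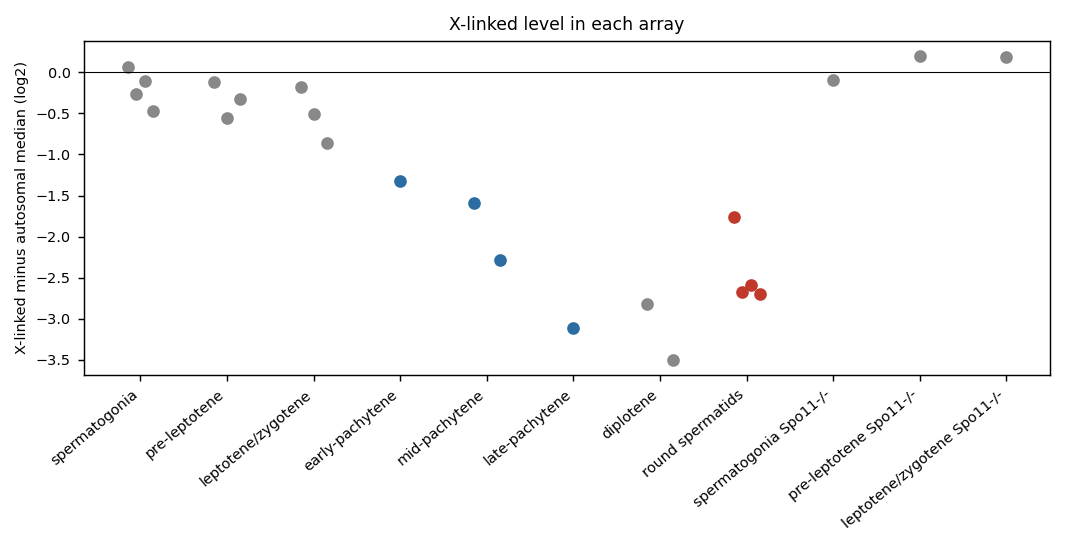
Difference of medians between X-linked and autosomal genes (log2, y axis) in each array (points), by fraction (x axis); pachytene arrays are blue and round spermatid arrays red. Late pachytene is at -3.11 and round spermatid array 1, at -1.76, is the highest of its group.

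For some genes the answer depended on the probe set, which reads a short stretch of the transcript. Of 20450 probe sets tested, 8499 (41.6%) passed. Among 5002 genes with several probe sets, 131 (2.62%) had probe sets called in opposite directions, and 1421 had at least 2 called in the same direction and none in the other. Without mid-pachytene array 1 the 131 became 77, and without round spermatid array 3 they became 87. Tgfbr1, a TGF-beta receptor, had 1 probe set at 9.80, 10.00, 10.76 and 9.45 and then 7.58, 7.79, 7.74 and 6.35. Another of its probe sets was at 3.29, 2.56, 3.69 and 2.46 and then at 7.25, 7.0, 7.54 and 5.24. The first was lower, by 2.64 ± 0.41 on the log2 scale, and the second, below the level in all pachytene arrays, higher by at least 2.76 (limma adjusted p = 0.00114 and 0.000714). Cdyl, a chromodomain protein of spermatid chromatin, had 1 probe set higher by 2.92 ± 0.43 and others at least 2.86 and 2.78 lower on the log2 scale. Rad21, the mitotic cohesin subunit, had 1 higher by at least 2.64 and others at -2.70 and -2.84. Lamp2 and Psmd11 completed the 5 genes with the largest gaps between fitted changes, a ranking made without that floor. Which transcript form each probe set reads was not analysed here, so the call of such a gene stands for 1 probe set.

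Markers of somatic testis cells were present in both groups to differing degrees, and some moved with the groups. Sertoli cell markers gave no call in 11 tested; their summed intensity ran from 1153 to 9051 in round spermatids and from 1426 to 13063 in pachytene, and Sox9 was at 4.05 or below in every array. Clu, clusterin, stood at 13.18, 12.45, 11.40 and 9.46 in pachytene and at 12.15, 11.39, 9.90 and 8.25 in round spermatids. Amhr2, the receptor of anti-Müllerian hormone, lay between 6.36 and 10.66 and Ptgds, a prostaglandin synthase, between 7.12 and 9.66 in the 8 arrays. The arrays of the groups overlapped for all 3, and the part of such cells in the results was not tested. Peritubular and stromal markers were higher in 4 of 8, Dcn, Col1a2, Col3a1 and Pdgfra, and lower in none, but in 2 without round spermatid array 2 or 3, with summed intensity from 1298 to 1762 in round spermatids and from 501 to 2387 in pachytene. Col1a2 stood at 3.80, 5.01, 5.16 and 3.94 and then at 6.61, 6.98, 6.22 and 6.62. Dcn, decorin, stood at 4.40, 6.88, 8.44 and 3.50 and then between 8.17 and 9.19. Of 16 leukocyte markers on the array, 11 were below the level in all 8 arrays, and Adgre1 of macrophages was among the new genes, between 4.42 and 4.89 in round spermatids. Their summed intensity was 208 to 261 in round spermatids and 197 to 578 in pachytene. Leydig cell markers gave 1 call in 5, Hsd3b1, and endothelial and red blood cell markers 1 in 2, Vwf. These calls were lost under 8 and 9 of 18 alternatives, and 46.1% of all genes tested were called in either direction. Summed intensity of Leydig markers was 452 to 1096 in round spermatids and 249 to 636 in pachytene, and of endothelial and red blood cell markers 102 to 179 and 75 to 109. Pdgfra was a new gene too, so 2 of the 217 new genes were in the marker lists of other cell types, apart from Cd5l, which no list holds; their part in the other new genes was not tested.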

How the data were processed

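RNA from sorted testis cells was hybridised to Affymetrix mouse arrays. The deposited values are intensity per probe set, summarised by the authors with GCRMA, per the submitters' processing notes; settings and version are not given in the sources used here. The 45037 probe sets were analysed as log2(value + 1); 34945 had 1 gene symbol, giving 18193 genes on RefSeq GRCm38.p6 names. Each gene was represented by its brightest probe set, by the mean of the 8 arrays, and genes at log2 4 or more in at least 2 of the 8 arrays were tested. Both groups were compared with limma 3.58.1 in R 4.3.3 (lmFit, eBayes, Benjamini-Hochberg adjustment); the spread came from these 8 arrays, since earlier wild-type fractions differed among themselves in spermatid genes. The script was tested on simulated data. The number of arrays limits the precision. Each limma p-value sets a group difference against the spread between these 8 arrays, moderated across genes. In pachytene that spread includes differences between stages.

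A gene was new where all round spermatid arrays were at log2 4 or more and all pachytene arrays below; bounds set arrays of the dimmer group that were below at log2 4. The X-linked level was compared with an exact permutation test. The 24 gene lists held 671 entries, 594 on the array. Named were the 12 largest rises and falls past the test with separate arrays (no predicted names), the 10 highest genes of each detection class, the 5 genes whose probe sets disagreed most, and up to 6 members per list past the test, or 3 as values. The members, lists and alternatives were chosen with earlier results of these data known; the list counts without single arrays, the Spo11-/- counts without 1 array and the bounds of genes detected in part of a group were added after seeing the values. Alternatives covered the filter, probe set choice, scaling, offset, eBayes settings, array weights, arrays in the fit, fold minimum, replicate block and each array left out.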

Additional observations from a re-analysis of the deposited data

Results flagged for a closer look

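In a group of 4 arrays, an array was singled out where its gap to the nearest other array took a larger part of the group's range than the 95% critical value of Dixon's test. Of 106 groups of values looked at, 10 were singled out this way, and chance gives about 1 in 20. Round spermatid array 1 stood apart for the X-linked level, at -1.76 against -2.70 to -2.59 in the other spermatid arrays. It also stood apart for Bex1, at 7.71 against 3.09 to 3.21, for Pbx2, at 5.44 against 2.58 to 2.98, and for Ttc23l, at 9.80 against 8.79 to 8.91. For Bex1 and Pbx2 the array lay between the other spermatid arrays and pachytene. Round spermatid array 4 stood apart for Samt4, at 6.68 against 8.59 to 8.89, and for Tmco5b, at 6.48 against 7.94 to 8.22, both new genes. Round spermatid array 3 did so for Sohlh1, at 2.77 against 3.03 to 3.06, all below the detection level. Within pachytene, the early array stood apart for Ccdc169, at 2.83 against 3.71 to 3.87, and mid-pachytene array 2 for Dct, at 2.64 against 2.23 to 2.27, and for Lamb3, at 4.43 against 2.75 to 2.91. The causes were not tested.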

How the results depend on the processing

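Over the filters, scalings, offset, eBayes settings, array weights and arrays in the fit, the number of genes past the test stayed within 1.5 times of 5691. A minimum log2 change of 2 left 2984 genes, 1424 higher and 1560 lower. Leaving out single arrays gave 4838 to 6207 genes, 2438 to 3118 higher and 2376 to 3089 lower, between 233 and 341 new genes, 9095 to 9295 present in both and 142 to 350 no longer detected. Detection at log2 5 and 6 gave 263 and 366 genes no longer detected, and 268 and 286 new genes. The X-linked difference was 0.042 without the filter (exact permutation p = 0.8), opposite in sign to -0.353, and -0.70 to -0.10 without single arrays. Genes whose probe sets disagreed numbered 81 without the filter, 15 at a log2 change of 2, and 77 to 160 without single arrays. Quantile normalization gave 2903 higher and 2673 lower and moved the median change to 0.088. Of 148 named genes past the test, 130 stayed past it under all alternatives run, 17 lost the call under at least 1, and Cstf2 changed sign, to -1.07 (limma adjusted p = 0.13), with the median of its probe sets. The labels do not say that replicate numbers mark a shared animal or day. With 2 shared numbers, the array differences of round spermatids and mid-pachytene correlated at 0.45 across genes, which is no basis for pairing. On these 4 arrays alone, the replicate block gave 6581 genes, 3245 higher and 3336 lower, against 2619 and 2458 without the block. The causes of these shifts were not tested.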
